A study of Mus musculus with 8 samples.

Results

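The genes of fatty acid and triglyceride synthesis were followed, step by step, through cultured palatal mesenchyme with and without the TGF-beta type II receptor gene Tgfbr2. The pathway was defined by 32 named genes, and each was read from the probe set with the highest mean among those with exactly 1 gene symbol. Of these genes 31 were measured, out of 18193 measured in all, and Acsl1 was not analysed here. The 31 comprised 6 genes from acetyl-CoA to palmitate, 5 desaturases, 4 elongases, 3 acyl-CoA synthetases, 11 enzymes of glycerolipid assembly and 2 transcription factors.

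The cells were primary mesenchyme from the palates of C57BL/6J mouse embryos at embryonic day 13.5, grown for 2 passages. Mutant cultures had the genotype Tgfbr2 fl/fl; Wnt1-Cre, and control cultures were Tgfbr2 fl/fl without Cre, so both groups carried the floxed alleles. The sample titles call the controls Tgfbr2 wildtype. Wnt1-Cre acts in neural crest cells and their descendants, and cells of other origin in the same culture keep an intact receptor gene. Total RNA of 4 mutant and 4 control samples was hybridised to Affymetrix arrays, and the study's question was what loss of TGF-beta signalling does to metabolism in the palate. All values are log2 intensities, on which a difference of 1 is a doubling. Whether the samples derive from separate embryos is not stated in the labels, and the p-values rest on differences among these 4 and 4 samples, and that spread may be technical.

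Fatty acids are built in the cytosol from acetyl-CoA, which is carboxylated to malonyl-CoA and condensed into palmitate at the expense of NADPH. Palmitate is then activated to acyl-CoA, and in that form it is lengthened by elongases and given double bonds by desaturases. Acyl-CoA is added stepwise to glycerol-3-phosphate to give phosphatidic acid, diacylglycerol and finally triglyceride, with membrane phospholipids branching off on the way. Growing mesenchyme needs these lipids mainly for membranes. The transcription factor SREBP1, product of Srebf1, is known to induce many of the enzymes, and ChREBP, product of Mlxipl, couples them to glucose.

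Several arrays stood apart before any gene of the pathway was considered. The mean of 20 macrophage and leukocyte markers, of which 19 exceeded the median probe set (6.94) on each of the 8 arrays, was 13.12, 13.12 and 13.15 in mutants 1 to 3 and 10.97 in mutant 4. It was 12.27, 12.49, 11.10 and 10.92 in controls 1 to 4. All 20 markers were higher on average in mutants. Of them 6 had an unadjusted p under 0.05 (against 5.84% of all genes, higher) and 0 an adjusted p under 0.05 in limma. The cultures therefore held macrophage transcripts at different levels, and in such bulk samples a change in the number of cells of a type and in the RNA per cell cannot be told apart. Of 14 palatal mesenchyme markers 11 exceeded that median on every array, but control 4 read 10.10 for Pdgfra against 12.23 to 12.62 in the other controls. It read 5.77 for Meox2, a homeobox gene of palatal mesenchyme, against 9.29 to 9.88 in the other controls. These markers were chosen after their values were seen, and in Col1a1, Vim, Prrx1, Twist1 and Msx1 control 4 lay within or close to the range of the other controls. Of the 14 markers 10 were lower on average in mutants (against 51.7% of all genes). At an unadjusted p under 0.05, 3 were lower (against 9.69% of all genes), and 0 had an adjusted p under 0.05 in limma. Those were Dlx5 (-1.13, adjusted p = 0.0607 in limma), Col3a1 (-0.38) and Col1a1 (-0.37), and in Dlx5 and Col1a1 the genotypes did not overlap. Adipocyte markers had array means of 6.66 to 7.29 in mutants and 6.57 to 6.90 in controls, with 3 of 9 above the median probe set throughout. Of the 9, 7 were higher on average in mutants and 1 at an unadjusted p under 0.05 (against 5.84% of all genes, higher). That was Lipe, the hormone-sensitive lipase, which was higher in all mutants than in any control (0.46, adjusted p = 0.187 in limma). Lpl, lipoprotein lipase, which macrophages also express, differed by 1.49 (SE 0.90). Adiponectin (Adipoq) averaged 4.84 and 4.88 and leptin (Lep) 5.05 and 4.87 in mutants and controls, all below the median probe set. The array mean of 8 epithelial markers was 6.86 to 6.97 in mutants and 6.69 to 6.80 in controls, without overlap. Of the 8, 3 lay above that median throughout. On average 5 of the 8 were higher in mutants, with a median difference of 0.05. At an unadjusted p under 0.05 there were 2, both higher (against 5.84% of all genes). Cdh1, E-cadherin, differed by 1.47 (SE 0.55, adjusted p = 0.268 in limma) and was higher in mutants 1 to 3 than in any control. It averaged 5.85 over all arrays, below the median probe set. The differences of the other epithelial markers ran from -0.38 for Krt18 to 0.22 for Krt14. The spiked bioB control, added at hybridisation, split the arrays into replicates 1 and 2 (6.34 to 6.52) and replicates 3 and 4 (8.24 to 8.79) in each genotype, and these are called hybridisation batches here. The brightest Tgfbr2 probe set read 12.42 ± 0.47 in mutants and 12.04 ± 0.40 in controls (SD, n = 4), and since no source used here places it inside or outside the floxed segment, it does not check the genotype labels.

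The promoter sequences of the members that differed most are shown first, because they give the letters through which regulators of this pathway are known to act. RefSeq promoters (GRCm38.p6, from 250 bases before to 50 after a gene's start, the most upstream start where a gene has several) were found for 25 of the 31 measured members. The motifs searched on both strands were CCAAT, the box bound by NF-Y, CACGTG, the E-box, TGACNNNGC, the core of the antioxidant response element, and TCACNCCAC, the core of the sterol regulatory element. CCAAT was present in 14 of the 25 promoters (56%) and in 38% of 27025 promoters of the same length. CACGTG was present in 4 (16%) against 7.24%, TGACNNNGC in 4 (16%) against 12.4%, and TCACNCCAC in 0 against 1.22%. These matches describe letters and not bound sites. Below are the 150 bases before the start of 4 members with an unadjusted p under 0.05 that hold a match there, and of the fatty acid synthase gene Fasn for reference, written 5′ to 3′ on the gene's strand with matches in capitals.
Me1 (chr9:86695912-86696064, minus strand): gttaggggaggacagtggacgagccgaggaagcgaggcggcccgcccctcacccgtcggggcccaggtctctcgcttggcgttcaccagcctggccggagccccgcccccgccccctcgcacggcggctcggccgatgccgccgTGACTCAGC
Fads3 (chr19:10041398-10041547, plus strand): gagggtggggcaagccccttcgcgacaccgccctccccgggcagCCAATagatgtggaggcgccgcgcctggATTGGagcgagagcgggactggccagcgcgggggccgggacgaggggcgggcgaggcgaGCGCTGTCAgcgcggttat
Acsl5 (chr19:55253219-55253368, plus strand): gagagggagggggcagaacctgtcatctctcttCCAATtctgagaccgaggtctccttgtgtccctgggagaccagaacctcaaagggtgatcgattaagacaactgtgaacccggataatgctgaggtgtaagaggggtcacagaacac
Lpin2 (chr17:71183382-71183531, plus strand): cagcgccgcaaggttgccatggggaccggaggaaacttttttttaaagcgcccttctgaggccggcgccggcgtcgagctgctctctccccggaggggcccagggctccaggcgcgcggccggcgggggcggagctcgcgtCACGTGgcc
Fasn (chr11:120824548-120824697, minus strand): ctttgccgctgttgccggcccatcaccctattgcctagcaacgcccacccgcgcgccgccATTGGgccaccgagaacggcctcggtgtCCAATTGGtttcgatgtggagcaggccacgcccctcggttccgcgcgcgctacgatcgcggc

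In Me1 the capitals mark an antioxidant response element core from base -6 to base 3, counted from the start, so this stretch ends 3 bases into the transcript. In Fads3 they mark CCAAT at -106 to -102, its reverse complement at -78 to -74 and the reverse complement of an antioxidant core at -19 to -11. Acsl5 holds CCAAT at -117 to -113 and Lpin2 an E-box at -9 to -4. Fasn holds 3 CCAAT matches, at -90 to -86 and -59 to -55 on the opposite strand and at -62 to -58 on its own, the last pair overlapping. Elovl7, Agpat4 and Lpin1 held none of the 4 motifs in the 150 bases before their start. Further upstream, Agpat4 held CCAAT at -208 to -204 and its reverse complement at -155 to -151.

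Between genotypes no member passed limma with Benjamini-Hochberg adjustment over all 18193 genes, where 16 genes (0.0879%) passed. At an unadjusted p under 0.05 there were 7 of 31 members (22.6%), against 15.5% of all genes. Me1, Fads3, Elovl7, Agpat4 and Lpin1 were on the lower side (5 members, 16.1%, against 9.69% of all genes), and Acsl5 and Lpin2 on the higher side (2 members, 6.45%, against 5.84%). The difference was negative for 21 members (67.7%), against 51.7% of all genes, with a median of -0.14 over the members and -0.01 over all genes. Only for Me1 and Elovl7 did all mutant arrays lie below all control arrays (2 members, 6.45%, against 5.18% of all genes), and no member lay wholly above (2.89% of all genes).

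**Figure D1:**
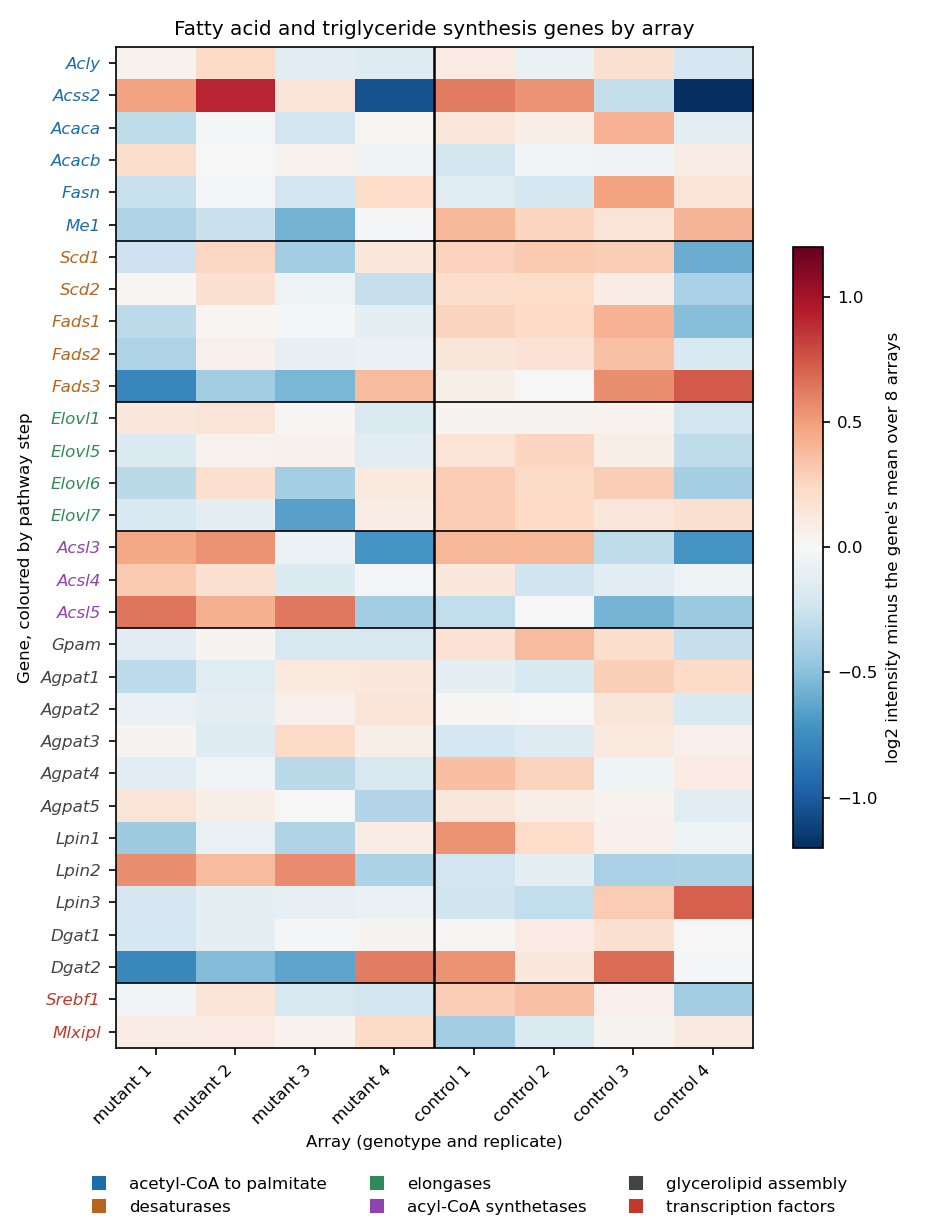
Each row is a gene, ordered and coloured by pathway step, and each column an array; colour gives the log2 intensity minus the gene's mean over the 8 arrays, with 4 mutant arrays left of the black line and 4 control arrays right of it. Me1 is lower in all 4 mutants, Acsl5 and Lpin2 are high in mutants 1 to 3 alone, and control 4 is the lowest array for 11 of the 31 genes. Acss2 in control 4 lies beyond the end of the colour scale and is drawn in its darkest blue.

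**Figure D2:**
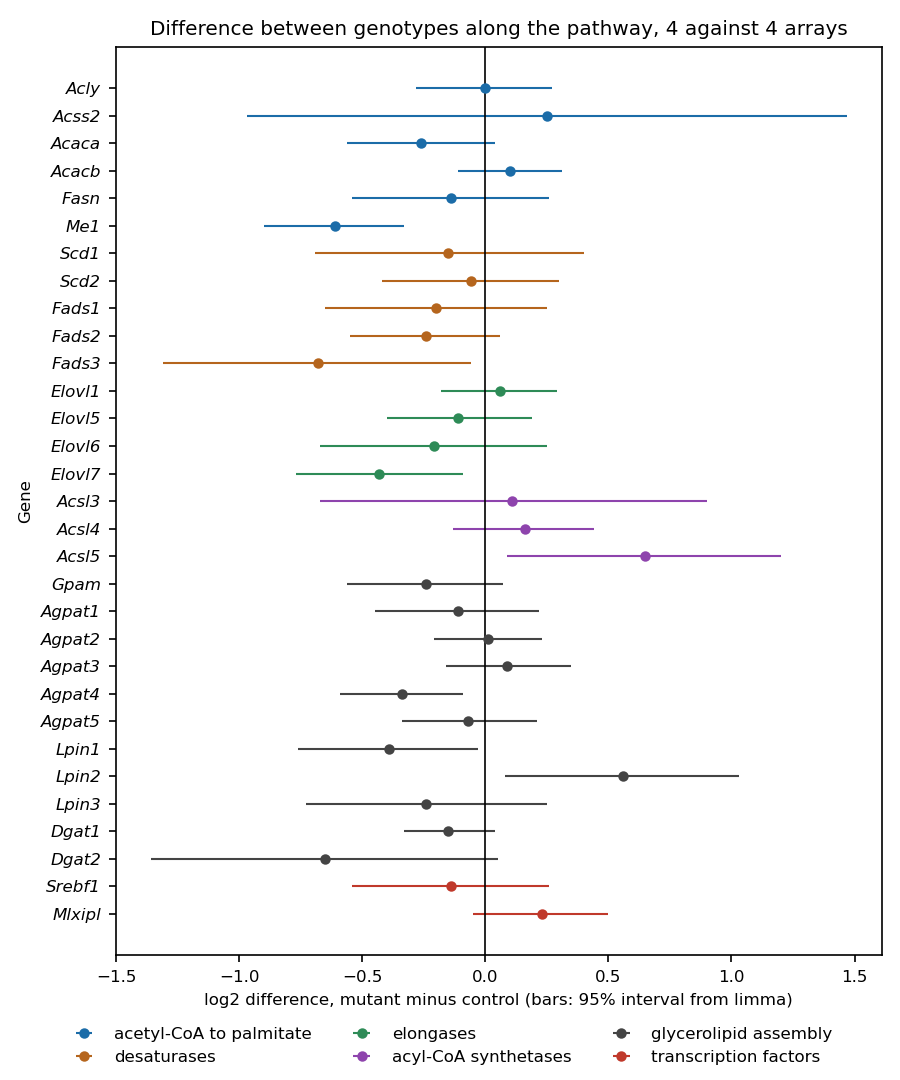
Points give the log2 difference, mutant minus control, for each gene, with 95% intervals from limma (4 against 4 arrays) and colours for the pathway steps. The points run from -0.68 for Fads3 to 0.65 for Acsl5, and 7 intervals leave out 0.

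The first step, from acetyl-CoA to palmitate, held the member with the smallest p, Me1, and little difference elsewhere. Me1 encodes cytosolic malic enzyme, which makes NADPH while turning malate into pyruvate. It read 10.76, 10.86, 10.56 and 11.12 in mutants 1 to 4 and 11.53, 11.39, 11.29 and 11.54 in controls 1 to 4. Every mutant array lay below every control array, and the mean of the control cultures was 1.53-fold above that of the mutant cultures. The difference was -0.61 (SE 0.13, 95% interval -0.90 to -0.33), with adjusted p = 0.161 in limma. A second Me1 probe set, which also did not overlap between genotypes, differed by -0.56 (SE 0.14). Me1 differed by -0.65 and -0.58 within the first and second hybridisation batch, and by -0.51 with the macrophage marker mean as a covariate. Without mutant 4, its highest mutant array, Me1 differed by -0.71 with adjusted p = 0.0186 in limma. It did not pass with any other 1 array left out.

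None of the enzymes that make the carbon chain had an unadjusted p under 0.05. Acly, ATP-citrate lyase, which releases cytosolic acetyl-CoA from citrate, read 12.45, 12.65, 12.28 and 12.26 in mutants and 12.51, 12.33, 12.60 and 12.21 in controls. Its groups overlapped fully and its 95% interval ran from -0.28 to 0.27. Acaca, the acetyl-CoA carboxylase of the cytosol, averaged 9.61 ± 0.16 in mutants and 9.87 ± 0.22 in controls (SD, n = 4), a difference of -0.26 (95% interval -0.56 to 0.04). Acacb, the carboxylase of the mitochondrial surface, was near or below the median probe set and differed by 0.10 (SE 0.09). Fasn, which assembles palmitate, read 10.20 ± 0.23 and 10.35 ± 0.32 (SD, n = 4), with a 95% interval of -0.54 to 0.26. A 1.5-fold difference in Fasn or Acly lies outside these intervals.

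Acss2 was the most variable member within each genotype. It makes acetyl-CoA from acetate in the cytosol and nucleus. It read 9.13, 9.56, 8.80 and 7.60 in mutants 1 to 4 and 9.27, 9.19, 8.36 and 7.28 in controls 1 to 4. In both genotypes replicates 1 and 2 were high and replicate 4 lowest, so its values followed the arrays more than the genotype (difference 0.25, SE 0.53). The difference was 0.64 without mutant 4 and -0.16 without control 4, and with the macrophage marker mean as a covariate it was -0.50 (adjusted p = 0.386 in limma). Acsl3 had a similar order of arrays, described with the acyl-CoA synthetases.

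From the probe sets used, all 5 desaturases had negative differences (against 51.7% of all genes), from -0.68 to -0.06 with a median of -0.20. Dimmer probe sets of Scd2 differed by 0.20 and -0.08 and that of Fads1 by 0.12, while those of Scd1, Fads2 and Fads3 were negative. Only Fads3 had an unadjusted p under 0.05. Fads3 encodes a desaturase of the FADS family that acts on sphingoid bases. It read 10.62, 10.98, 10.85 and 11.78 in mutants 1 to 4 and 11.47, 11.40, 11.96 and 12.14 in controls 1 to 4. Mutants 1 to 3 lay below every control, and mutant 4 lay among the controls. The difference was -0.68 (SE 0.27, adjusted p = 0.285 in limma), and its other probe sets differed by -0.59 and -0.66. Without mutant 4 Fads3 differed by -0.93 (adjusted p = 0.0377 in limma). The order of arrays ran against the macrophage markers, highest in mutants 1 to 3, and with their mean as a covariate the difference of Fads3 was -0.28 (adjusted p = 0.224 in limma).

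The stearoyl-CoA desaturases, which make monounsaturated fatty acids, and the front-end desaturases Fads1 and Fads2, which act on polyunsaturated ones, shared another pattern. Scd1 read 11.22, 11.71, 11.05 and 11.59 in mutants and 11.74, 11.78, 11.76 and 10.87 in controls. Scd2 read 13.54, 13.70, 13.45 and 13.24 in mutants and 13.72, 13.73, 13.60 and 13.12 in controls. Fads1 read 10.60, 10.94, 10.90 and 10.81 in mutants and 11.18, 11.15, 11.33 and 10.40 in controls. In all 3 genes control 4 was the lowest of the 8 arrays and controls 1 to 3 lay close together. Fads2 read 9.36, 9.79, 9.63 and 9.65 in mutants and 9.87, 9.90, 10.08 and 9.55 in controls, again with control 4 lowest among controls. With all arrays the differences were -0.15 for Scd1, -0.06 for Scd2, -0.20 for Fads1 and -0.24 for Fads2. Without control 4 they were -0.37, -0.20, -0.41 and -0.34, and none passed over all genes (adjusted p = 0.219 for Fads1 and 0.270 for Fads2 in limma).

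**Figure D3:**
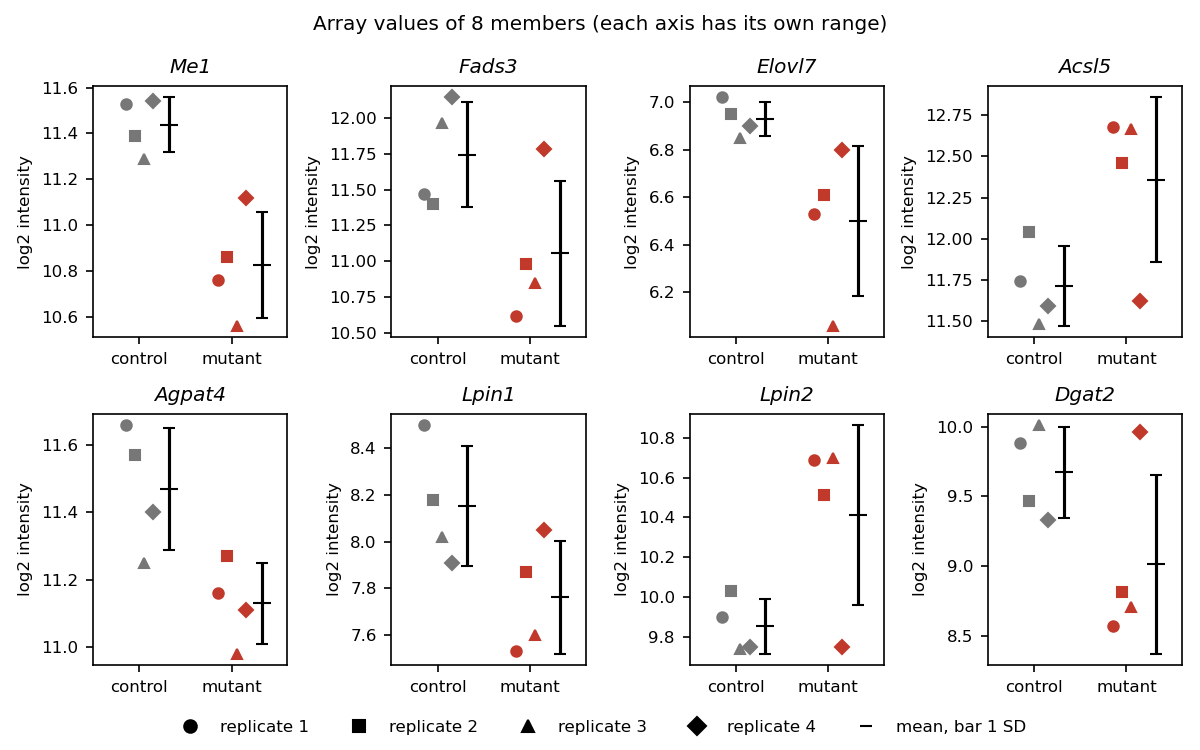
Each point is an array, with the marker giving the replicate number, and the bar to its right the mean and 1 SD of 4 arrays; the vertical axis is the log2 intensity and has its own range in each panel. The 7 members with an unadjusted p under 0.05 and Dgat2 are shown, and in Fads3, Acsl5, Lpin2 and Dgat2 mutant 4 (diamond) lies with the controls.

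Among the elongases, Elovl7 had the largest difference and the dimmest signal. Elovl7, an elongase of long saturated and polyunsaturated acyl-CoA, read 6.53, 6.61, 6.06 and 6.80 in mutants and 7.02, 6.95, 6.85 and 6.90 in controls. The genotypes did not overlap, though mutant 4 and control 3 were only just apart. The difference was -0.43 (SE 0.15, adjusted p = 0.246 in limma), and the mean of 6.71 lay below the median probe set. Without mutant 3, its lowest array, the difference was -0.28 (adjusted p = 0.427 in limma). The other 5 Elovl7 probe sets, all dimmer, differed by -0.17 to -0.08, and the mean of its 6 probe sets by -0.17. Elovl1, an elongase of saturated very long chains, read 12.24, 12.27, 12.13 and 11.94 in mutants and 12.15, 12.15, 12.16 and 11.90 in controls. Its 95% interval of -0.18 to 0.29 leaves out a 1.5-fold difference. Elovl5, which lengthens polyunsaturated chains, differed by -0.11 (SE 0.13), and Elovl6, which takes palmitate to stearate, by -0.21 (SE 0.20). Elovl6 read 10.51, 10.44, 10.50 and 9.81 in controls, so here too control 4 stood below the other 3.

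From the probe sets used, the 3 acyl-CoA synthetases measured, which activate long-chain fatty acids, all had positive differences. Dimmer probe sets differed by -0.03 and 0.20 for Acsl3 and by 0.28 and -0.17 for Acsl4. The positive difference of Acsl5 was the largest of any member. Acsl5, a synthetase linked to triglyceride formation, read 12.68, 12.46, 12.67 and 11.62 in mutants 1 to 4 and 11.74, 12.04, 11.48 and 11.59 in controls 1 to 4. Mutants 1 to 3 were above every control, and mutant 4 was not. The difference was 0.65 (SE 0.24, adjusted p = 0.270 in limma), and without mutant 4 it was 0.89 (adjusted p = 0.0202 in limma). Acsl5 was high where the macrophage markers were high, and with their mean as a covariate the difference was 0.30 (adjusted p = 0.244 in limma). Acsl3, a synthetase of the endoplasmic reticulum and lipid droplets, read 10.15, 10.22, 9.61 and 8.97 in mutants and 10.08, 10.08, 9.38 and 8.97 in controls. Its replicates 1 and 2 were high and replicate 4 low in both genotypes, and its difference was 0.11 (SE 0.34). Acsl4, which prefers arachidonate, differed by 0.16 (95% interval -0.13 to 0.44).

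Glycerolipid assembly starts with the acylation of glycerol-3-phosphate by Gpam and of lysophosphatidate by the Agpat family. Gpam differed by -0.24 (SE 0.14) and read 9.96, 10.17, 10.00 and 9.51 in controls, all 4 mutants lying between 9.60 and 9.82. Without control 4 every mutant lay below the other 3 controls, with a difference of -0.38 and adjusted p = 0.201 in limma. Agpat4, an acyltransferase that makes phosphatidic acid, read 11.16, 11.27, 10.98 and 11.11 in mutants and 11.66, 11.57, 11.25 and 11.40 in controls. Of the mutants only the second reached the lowest control. The difference was -0.34 (SE 0.11, adjusted p = 0.228 in limma), with -0.27 from its other probe set, and -0.40 and -0.28 within the hybridisation batches. With the macrophage marker mean as a covariate it was -0.41, and it lay between -0.41 and -0.27 over all 1-array omissions. From the probe sets used, Agpat1, Agpat2, Agpat3 and Agpat5 differed by -0.11, 0.01, 0.09 and -0.07. Each 95% interval held 0 and lay within 0.45 of it on the log2 scale. Dimmer probe sets of Agpat3 differed by -0.04 (SE 0.14), 0.38 (SE 0.25) and 0.31 (SE 0.10). In the last, at a mean of 6.36 below the median probe set, all mutants lay above all controls (unadjusted p = 0.0128 in limma).

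The lipins, which dephosphorylate phosphatidic acid to diacylglycerol, differed in opposite directions. Lpin1 read 7.53, 7.87, 7.60 and 8.05 in mutants 1 to 4 and 8.50, 8.18, 8.02 and 7.91 in controls 1 to 4. Mutants 1 to 3 were below all controls, and mutant 4 overlapped them. The difference was -0.39 (SE 0.16, adjusted p = 0.298 in limma), its second probe set gave -0.42, and the batches gave -0.64 (first) and -0.14 (second). Lpin2 read 10.69, 10.51, 10.70 and 9.75 in mutants 1 to 4 and 9.90, 10.03, 9.74 and 9.75 in controls 1 to 4. Mutants 1 to 3 were above all controls and mutant 4 was level with controls 3 and 4. The difference was 0.56 (SE 0.21, adjusted p = 0.269 in limma), 0.78 without mutant 4 (adjusted p = 0.0164 in limma) and 0.27 with the macrophage marker mean as a covariate (adjusted p = 0.274 in limma). Further Lpin2 probe sets differed by 0.54 (SE 0.43), 0.23 and 0.17, and the mean of its probe sets by 0.37. Lpin3 lay below the median probe set, read 5.20 to 5.32 in mutants, and reached 5.70 and 6.11 in controls 3 and 4.

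The last enzymes of triglyceride synthesis are the diacylglycerol acyltransferases Dgat1 and Dgat2. Dgat2, which works with newly made fatty acids, read 8.57, 8.82, 8.71 and 9.96 in mutants 1 to 4 and 9.88, 9.47, 10.01 and 9.33 in controls 1 to 4. Mutants 1 to 3 lay below every control while mutant 4 was among the highest arrays. With all arrays the difference was -0.65 (SE 0.31, adjusted p = 0.351 in limma), and without mutant 4 it was -0.97 (adjusted p = 0.0263 in limma). Its other probe set, with a mean of 8.11, differed by -0.33 (SE 0.17) with all arrays. Dgat2 differed by -0.98 within the first hybridisation batch and by -0.33 within the second, and by -0.32 with the macrophage marker mean as a covariate (adjusted p = 0.547 in limma). Dgat1, which esterifies fatty acids from several sources, differed by -0.15 (SE 0.08, 95% interval -0.33 to 0.04).

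**Figure D4:**
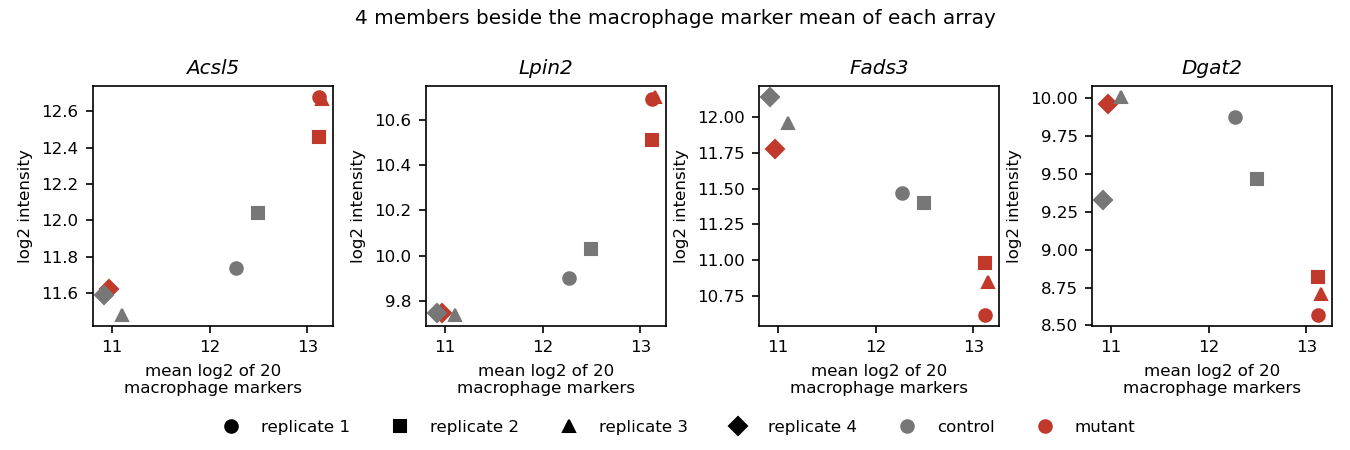
The horizontal axis gives the mean log2 intensity of 20 macrophage and leukocyte markers on each array and the vertical axis the log2 intensity of Acsl5, Lpin2, Fads3 or Dgat2; colour gives the genotype and the marker the replicate. Mutants 1 to 3 sit together above 13 on the horizontal axis, and mutant 4 sits at 10.97 beside controls 3 and 4 for Acsl5 and Lpin2.

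Both transcription factors of the list showed small differences. Srebf1 read 10.78, 10.96, 10.62 and 10.59 in mutants and 11.11, 11.16, 10.87 and 10.39 in controls, with control 4 the lowest of all arrays. Its difference was -0.14 (SE 0.17), and -0.31 without control 4 (adjusted p = 0.315 in limma). Mlxipl averaged 5.78 ± 0.08 in mutants and 5.56 ± 0.24 in controls (SD, n = 4), below the median probe set, and differed by 0.23 (SE 0.12, adjusted p = 0.402 in limma).

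The counts of members depended on which arrays were included. Control 4 was the lowest of the 8 arrays for 11 members (35.5%), against 15.4% of all genes: Acly, Acss2, Scd1, Scd2, Fads1, Elovl1, Elovl5, Acsl3, Gpam, Agpat2 and Srebf1. Mutant 1 was the lowest for 8 (25.8%, against 17.9%) and control 3 the highest for 7 (22.6%, against 18.1%). Mutant 4 was the lowest for 1 member and the highest for 2, below its shares over all genes (10.3% and 16.0%). Without control 4, 11 members had an unadjusted p under 0.05 on the lower side (35.5%, against 9.65% of all genes) and 1 on the higher side (against 5.07%), and 25 differences were negative with a median of -0.17. These 11 were Acaca, Me1, Fads1, Fads2, Elovl5, Elovl6, Elovl7, Gpam, Agpat4, Lpin1 and Srebf1. Control 4 was the lowest control for Acaca, Fads1, Fads2, Elovl5, Elovl6, Gpam, Lpin1 and Srebf1, and leaving it out raises their control means by construction. It was the highest control for Me1 and neither lowest nor highest for Elovl7 and Agpat4. Those 3 differed by -0.58, -0.44 and -0.36 without it, against -0.61, -0.43 and -0.34 with all arrays. Without control 4, 0 of the 31 passed the limma adjustment over all genes (against 0.170%). Without mutant 4, 5 members passed (16.1%, against 7.23% of all genes): Me1, Fads3 and Dgat2 fell, and Acsl5 and Lpin2 rose. Mutant 4 was the mutant array nearest the control mean in each of these 5, and leaving it out widens their differences by construction. With both arrays left out, an alternative chosen after seeing the data, the same 5 passed (16.1%, against 6.80%), and 12 members were lower at an unadjusted p under 0.05 (38.7%, against 14.6%). Without mutant 1, mutant 2 or mutant 3, 3 members were lower at that level (6.15%, 8.16% and 6.40% of all genes) and 0 higher (3.40%, 4.79% and 3.46%), against 5 and 2 with all arrays. Without control 3, 0 were higher (4.52% of all genes). With array weights, which gave mutant 4 a weight of 0.355 and control 4 one of 0.405, 7 members passed in limma (22.6%, against 8.08%) and 11 were lower at an unadjusted p under 0.05 (35.5%, against 16.4%). With the macrophage marker mean as a covariate 0 members passed in limma (0.280% of all genes), and the median difference was -0.21. At an unadjusted p under 0.05, 5 members were then lower (16.1%, against 9.26% of all genes): Me1, Fads3, Gpam, Agpat4 and Agpat5. Acsl5, Lpin2 and Mlxipl were higher (9.68%, against 7.99%), and Elovl7 and Lpin1 no longer reached that level.

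**Figure D5:**
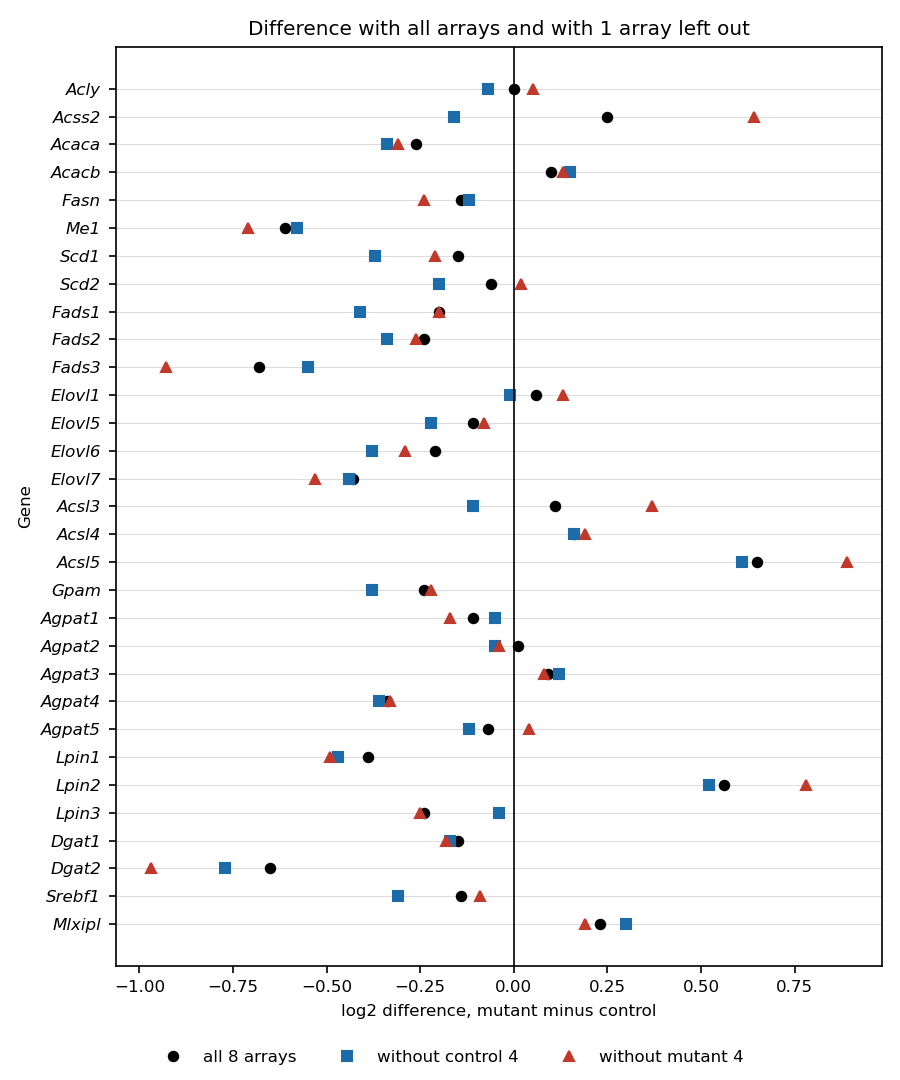
The log2 difference, mutant minus control, is plotted for each gene with all 8 arrays (black circles), without control 4 (blue squares) and without mutant 4 (red triangles). Scd1, Fads1, Elovl6, Gpam and Srebf1 move further below 0 without control 4, and Fads3, Acsl5, Lpin2 and Dgat2 move further from 0 without mutant 4.

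The hybridisation batches differed in how many members passed within them. In the first batch, with 2 mutant and 2 control arrays, 8 members passed limma over all genes (25.8%, against 11.5% of all genes): Me1, Fads3, Elovl7, Agpat4, Lpin1 and Dgat2 fell, and Acsl5 and Lpin2 rose. At an unadjusted p under 0.05, 10 members were lower in that batch (32.3%, against 17.3%). In the second batch 0 members and 0 genes passed, and 1 member, Lpin3, was lower at an unadjusted p under 0.05 (3.23%, against 3.52%). Over the desaturases the median difference was -0.31 in the first batch and -0.02 in the second, and over the elongases -0.30 and -0.04. From acetyl-CoA to palmitate it was 0.08 and -0.20, over glycerolipid assembly -0.11 and -0.14, and over the acyl-CoA synthetases 0.31 and 0.11. Controls 1 and 2 both belong to the first batch, and mutant 4 and control 4 both to the second. The part of macrophage content, of the batches and of single arrays in these differences was not tested.

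Of 75 other genes of the pathway that are not members, 68 were measured. In limma 0 passed over all genes, and at an unadjusted p under 0.05 there were 4 lower and 2 higher (5.88% and 2.94%, against 9.69% and 5.84% of all genes). The genotypes did not overlap for 6 on the lower side (8.82%, against 5.18%). Without mutant 4 the counts were 8 lower and 8 higher (11.8% each, against 14.0% and 10.2%). Elovl4, an elongase of very long polyunsaturated chains, read 5.66, 5.76, 5.90 and 6.17 in mutants and 6.60, 6.57, 6.72 and 6.99 in controls. Its genotypes were clearly separate, with a difference of -0.85 (SE 0.14, adjusted p = 0.0990 in limma), at a mean of 6.30 that lies below the median probe set. Elovl4 differed by -0.87 and -0.82 within the hybridisation batches, and with that batch as a block it passed (adjusted p = 0.0348 in limma). It also passed without mutant 4, its highest mutant array (-0.95, adjusted p = 0.0164 in limma). Gpat3, a glycerol-3-phosphate acyltransferase of the endoplasmic reticulum, also did not overlap, with a difference of -0.61 (SE 0.15, adjusted p = 0.187 in limma). It read 6.72, 7.00, 6.50 and 6.86 in mutants and 7.42, 7.04, 7.50 and 7.56 in controls, at a level close to the median probe set. Hacd1, a dehydratase of the elongation cycle, read 12.75 to 13.18 in mutants and 13.23 to 13.71 in controls, a difference of -0.48 (SE 0.15, adjusted p = 0.216 in limma). Plpp1, a lipid phosphate phosphatase, differed by -0.31, Mid1 by 0.35 and Cyb5a, the cytochrome b5 that passes electrons to desaturases, by 0.21, each with adjusted p from 0.278 to 0.313 in limma. Mid1 encodes a microtubule-associated ubiquitin ligase, not an enzyme of lipid synthesis, and stood in the list beside Mid1ip1, a lipogenic regulator that differed by 0.09. Leaving Mid1 aside, Cyb5a is the sole gene on the higher side. Of the regulators of SREBP, Insig1 and Insig2, which hold it in the endoplasmic reticulum, differed by 0.22 (SE 0.28) and -0.07 (SE 0.16), and both were lowest in control 4; these genes were named after their values were seen. Control 4 was the lowest array for 18 of the 68 (26.5%), against 15.4% of all genes.

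The further probe sets of the members gave a partial check of these values. There were 47 further probe sets for 25 of the 31 members, and 34 had the same sign as the one used. Of the 13 that belong to the 7 members with an unadjusted p under 0.05, all had the same sign and 4 reached that level in limma, namely those of Me1, Fads3 and Lpin1. Acsl5 had no further probe set. Scd2, Elovl1, Acsl3 and Agpat5 changed sign with the mean of all probe sets, the probe set of largest spread, or both. Their differences are within the spread between arrays under each choice. Acly, Acacb, Fads1, Acsl4, Gpam, Agpat3 and Dgat1 also had at least 1 dimmer probe set of opposite sign. For Fads1, Gpam and Dgat1 these differed by 0.12, 0.03 and 0.13. With the mean of all probe sets, or with the probe set of largest spread, 1 member was higher at an unadjusted p under 0.05 (5.93% and 5.67% of all genes).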

How the data were processed

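Expression was measured in 4 mutant and 4 control samples, grouped by sample title. The authors deposited 1 log2 value for each probe set and array, made with RMA per the submitters' processing notes; its version and a genome build are not given in the sources used here. They were used as deposited (range 3.21 to 15.18, array medians 6.90 to 6.96). Of 45101 probe sets, 34945 had 1 gene symbol, 932 several, 9160 were not listed and 64 were array controls. Symbols were updated by Entrez identifier through RefSeq (GRCm38.p6; 34741 matched), leaving 18193 genes, each read from its brightest probe set.

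Limma 3.58.1 (R 4.3.3) gave each difference, mutant minus control, with a two-sided p and no covariate, adjusted with Benjamini-Hochberg over all genes at 0.05; the procedure was tested on simulated data. Members, lists and tests were chosen with earlier results of these data known. Array values are given for members with an unadjusted p under 0.05 or no overlap and the brightest of each step, and for the 6 other pathway genes with the smallest p where they matter; array values of Acss2, Dgat2, Acsl3, Gpam and the members low in control 4 were added after being seen. The precision is limited by the number of arrays. Alternatives covered normalisation, probe set choice, dim genes, variance model, array weights, single arrays, batches and macrophage content. No label names a batch: hybridisation batches were read from the bioB controls, and a poly-A batch (mutant 3, mutant 4 and control 3 against the other arrays) from the poly-A controls, low on those arrays (6.77 to 7.56) and higher on the others (8.53 to 9.21). Same-numbered samples are not said to share a source.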

Additional observations from a re-analysis of the deposited data

Results flagged for a closer look

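In groups of 4 arrays, the lowest or highest array was set against its nearest neighbour for each of the 31 members and 6 other named pathway genes. In 4 of these 74 groups the gap, as a share of the group's range, exceeded Dixon's 95% critical value, and chance gives about 1 in 20. All 4 concerned control 4, which lay below the other controls. Scd1 read 10.87 in control 4 against 11.74 in the next lowest control (gap 0.960 of the range). Elovl1 read 11.90 against 12.15 (0.928), Elovl6 read 9.81 against 10.44 (0.899), and Mid1 read 6.87 against 7.29 (0.861).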

How the results depend on the processing

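Over 22 alternatives the median difference of the members stayed below 0. Members past the adjusted p in limma numbered 0 with all arrays at equal weight (0.0879% of all genes) and 7 with array weights (8.08%). They numbered 8 in hybridisation batch 1 alone (11.5%) and 5 with mutant 4 and control 4 both left out (6.80%). Members lower at an unadjusted p under 0.05 numbered 5 (9.69% of all genes). With array weights, batch 1, batch 2 and both arrays left out they numbered 11, 10, 1 and 12 (16.4%, 17.3%, 3.52% and 14.6%). Members higher numbered 2 (5.84% of all genes) and 0 in batch 2 (1.68%). They numbered 1 with the mean of all probe sets (5.93%) and 1 with the probe set of largest spread (5.67%). With 1 array left out, members past the adjusted p ranged from 0 to 5, lower from 3 to 11 and higher from 0 to 2. The shares of all genes then ranged from 0% to 7.23%, 6.15% to 14.0% and 3.40% to 10.2%. Other pathway genes lower numbered 4, and 11, 8, 2 and 9 with array weights, batch 1, batch 2 and both arrays left out (16.4%, 17.3%, 3.52% and 14.6% of all genes), and 7 with the poly-A batch as a block (14.1%). Higher ones numbered 2, and 4, 5, 0 and 4 in the same order (11.5%, 11.3%, 1.68% and 9.89% of all genes), 0 with centred arrays, and 1 each with the mean, the spread rule, dim genes left out and the macrophage covariate. With 1 array left out they ranged from 3 to 8 lower and 0 to 8 higher, both highest without mutant 4 (14.0% and 10.2% of all genes). The causes were not tested.

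Signs turned for Agpat2 with centred arrays (-0.02), Acly with quantile normalisation (0.00475), and Scd2, Elovl1 and Agpat5 with the mean of probe sets (0.02, -7.60e-05, 0.06). With the probe set of largest spread they turned for Scd2, Elovl1, Acsl3 and Agpat5 (0.20, -0.12, -0.03, 0.14), and with array weights for Acly, Agpat2 and Lpin3 (0.05, -0.06, 0.000744). In batch 1 they turned for Acly, Fasn, Agpat2, Agpat5 and Lpin3 (0.13, 0.03, -0.11, 0.01, 0.12), and in batch 2 for Acacb, Scd1 and Elovl5 (-0.02, 0.00104, 0.06). They also turned with the poly-A block for Acly and Agpat2 (0.01, -0.04), with the macrophage covariate for Acss2, Fasn, Elovl1, Acsl3 and Agpat1 (-0.50, 0.07, -0.05, -0.37, 0.04), and with both arrays left out for Agpat2 (-0.10). With 1 array left out the ranges were Acly -0.08 to 0.06, Acss2 -0.16 to 0.64, Scd2 -0.20 to 0.02, Elovl1 -0.01 to 0.13, Acsl3 -0.11 to 0.37, Agpat2 -0.05 to 0.06 and Agpat5 -0.13 to 0.04. None of the members with an unadjusted p under 0.05 turned.

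Same-numbered mutants and controls correlated at 0.47, 0.42, -0.09 and 0.37 in their deviations, so the numbers were not taken as pairs, and no mutant 1 to 4 correlated best with its own number. With the replicate number as a block, 4 members were lower, 2 higher and 0 past the adjusted p (12.5%, 8.55% and 0% of all genes), 6 other pathway genes were higher, and 0 genes of all passed against 16. With 4 arrays a genotype, small differences in dim genes such as Elovl7, Lpin3 and Mlxipl cannot be resolved.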
